A study of Mus musculus with 10 samples.

Results

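The genes described here are 10 members of the signalling cascade by which ON bipolar cells of the retina read the glutamate released by photoreceptors: Grm6, Nyx, Lrit3, Trpm1, Gpr179, Rgs7, Rgs11, Gng13, Pcp2 and Prkca. They were taken by name from a deposited table of read counts for 36115 genes. All 10 were found, each in 1 row, and all 10 passed the filter on low counts. The counts come from bulk retinas of untreated mice aged 3 months, 5 libraries labelled wild type and 5 labelled B6.129S2-Il6tm1Kopf/J, a line in which the gene of the cytokine interleukin-6 (Il6) is interrupted. Both groups are labelled with a C57BL/6 background, and the labels give no sex, litter, batch or number of animals per library. The 5 wild-type libraries are written W1 to W5 and the 5 labelled knockout K1 to K5. Whether each library is a different animal is not stated, and the p-values then rest only on how far these libraries spread, which may be technical.

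In the dark, photoreceptors release glutamate, which the receptor mGluR6 on the dendrites of ON bipolar cells passes to the G protein Go, and the cation channel TRPM1 is held shut. Light lowers glutamate, Go is switched off by a complex of RGS proteins held at the membrane by GPR179, and TRPM1 opens, so the cell depolarises when light comes on. Rod bipolar cells and ON cone bipolar cells both use this cascade. Loss of Grm6, Trpm1, Gpr179, Nyx or Lrit3 causes congenital stationary night blindness in humans and removes the b-wave of the electroretinogram in mice.

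Sequences just upstream of the start sites are shown for Grm6, Gpr179 and Trpm1, because the levels of these 3 genes went together from library to library, as described below. Gng13 with Pcp2 and Nyx with Prkca went together at least as closely, and their sequences are not shown. Each run is the 250 bases before the RefSeq start (GRCm38.p6; for Trpm1 the most upstream of its starts), written 5′ to 3′ on the strand of the gene. Capitals mark matches, on either strand, to TAATCC, the core bound by the homeodomain proteins OTX2 and CRX, and to CANNTG, the E-box of bHLH proteins.
Grm6, chr11:50850435-50850684, plus strand: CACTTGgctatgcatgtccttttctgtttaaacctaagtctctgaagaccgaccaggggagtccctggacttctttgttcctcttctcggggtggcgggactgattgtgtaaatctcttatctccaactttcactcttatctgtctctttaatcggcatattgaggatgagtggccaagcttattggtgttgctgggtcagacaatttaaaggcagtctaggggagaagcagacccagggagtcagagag
Gpr179, chr11:97352357-97352606, minus strand: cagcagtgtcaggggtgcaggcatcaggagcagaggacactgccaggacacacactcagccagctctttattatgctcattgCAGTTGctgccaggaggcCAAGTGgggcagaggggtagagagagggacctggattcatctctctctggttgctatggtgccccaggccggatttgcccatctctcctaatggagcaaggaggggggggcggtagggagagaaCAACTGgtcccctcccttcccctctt
Trpm1, chr7:64153585-64153834, plus strand: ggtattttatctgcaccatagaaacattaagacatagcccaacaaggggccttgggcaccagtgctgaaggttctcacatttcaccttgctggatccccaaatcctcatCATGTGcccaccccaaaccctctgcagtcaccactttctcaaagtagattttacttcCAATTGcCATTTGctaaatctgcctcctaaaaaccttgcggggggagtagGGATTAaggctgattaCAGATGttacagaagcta
Trpm1 held 1 match to TAATCC, read as its reverse complement, and 4 E-boxes. The Gpr179 window held 3 E-boxes and the Grm6 window held 1, and neither held TAATCC in these letters. RefSeq windows were found for 9 of the 10 genes, 14 windows in all. Among the 9 genes, TAATCC was in 1 (Trpm1) and an E-box in 8, and counted by window these were 1 and 13 of the 14. Of all 32851 windows of the same length, 6.25% held TAATCC and 66.2% held an E-box. These matches describe letters and not binding.

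Total counts per library ran from 30433373 in W1 to 38857374 in W4, and K5 carries another second index in its label than the other 9 libraries. Il6 itself, which checks the labels, had 3 reads over the 5 wild-type libraries and 22 over the 5 labelled knockout. That goes against the label if the reads lie in the interrupted part, which gene-level counts cannot show, so directions below are those of the libraries as labelled. Retinal markers were high and those of lens near 0. The summed level of 12 rod markers ran from 57907 to 81100 CPM (a gene's share of the counts of its library, scaled with edgeR's TMM factors), while 9 lens markers summed to at most 2.65 CPM. Among wild-type libraries W2 stood apart by the sum of 10 Muller glia markers, at 8897 CPM against 6398 to 7086, and markers of the pigment epithelium ran from 43.4 CPM in W5 to 540 CPM in W2. Because these are bulk samples, fewer cells of a type and less RNA per cell cannot be told apart in any value below.

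None of the 10 cascade genes differed between the groups by edgeR's quasi-likelihood test with Benjamini-Hochberg adjustment over all tested genes (adjusted p from 0.554 for Lrit3 to 0.991 for Nyx). Across all 18965 tested genes, 2.03% were called at an adjusted p under 0.05, 0.859% higher and 1.17% lower. At an unadjusted p under 0.05 the count among the 10 was also 0, where 13.8% of tested genes passed. DESeq2 and limma-voom called 0 of the 10, against 3.70% and 1.80% of tested genes, and 0 of the 10 had an adjusted p under 0.05 in the authors' deposited table, against 3.37% of the genes given one there. The authors' deposited log2 fold changes ran from -0.14 for Lrit3 to 0.12 for Prkca. The libraries of the groups overlapped in all 10 genes; among tested genes, 3.48% had groups that did not overlap. Of the 10 log2 fold changes (labelled knockout over wild type), 5 were positive and 5 negative, though 6 of these signs turned when 1 library was left out. Their median was 0.004, beside 0.00175 over all tested genes.

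The intervals show which sizes of change the data leave possible. The 95% intervals of the 10 fold changes lay between 0.727-fold, the lower bound for Rgs11, and 1.29-fold, the upper bound for Prkca. The narrowest was that of Rgs7, from 0.877-fold to 1.11-fold, and the widest that of Rgs11, from 0.727-fold to 1.22-fold. Counting error was small beside these intervals, because single libraries held from 514 reads (Nyx in K4) to 16620 reads (Prkca in K2). An adjusted p above the threshold does not show that the groups are alike.

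**Figure D1:**
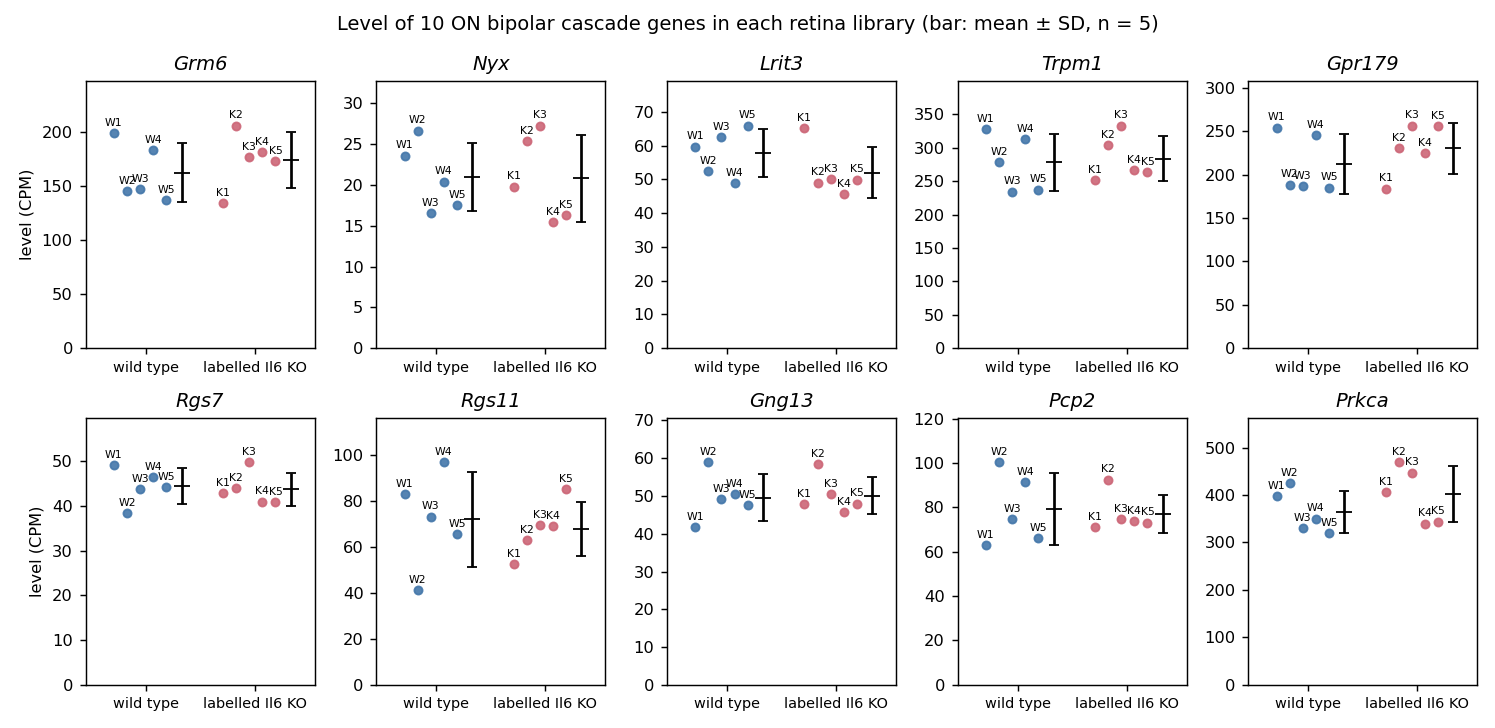
Level in CPM (vertical axes, from 0) of each of the 10 cascade genes in each library, with blue points for wild type, red points for libraries labelled knockout and bars for mean ± SD (n = 5). The points of both groups overlap in every panel, and Rgs11 spreads most in wild type, from 41.1 CPM in W2 to 97.0 CPM in W4.

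Grm6 encodes mGluR6, the glutamate receptor that starts the cascade (ENSMUSG00000000617.14, chromosome 11, 50850685 to 50866208, plus strand, GRCm38). It stood at 199, 145, 147, 184 and 137 CPM in W1 to W5 and at 134, 206, 177, 181 and 173 CPM in K1 to K5. K1 was the lowest of all and K2 the highest, while W2, W3 and W5 lay close to K1. The means were 162 ± 27.2 and 174 ± 25.7 CPM (SD, n = 5), and the log2 fold change was 0.10 ± 0.12 (SE; edgeR adjusted p = 0.767). Gm12660, an antisense gene, shares 599 exon bases with Grm6, and its own level was at most 2.77 CPM.

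Nyx encodes nyctalopin, a leucine-rich repeat protein of the dendritic tip that TRPM1 needs to reach the membrane (ENSMUSG00000051228.5, chromosome X, 13466110 to 13489313, plus strand). Its levels were 23.6, 26.7, 16.6, 20.4 and 17.6 CPM in W1 to W5 and 19.8, 25.4, 27.3, 15.4 and 16.3 CPM in K1 to K5. Each group held libraries near the top and near the bottom of the range, with W2, K2 and K3 highest and K4 lowest. The means, 20.96 ± 4.20 and 20.8 ± 5.32 CPM, gave a log2 fold change of -0.01 ± 0.16 (edgeR adjusted p = 0.991).

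Lrit3 encodes a second leucine-rich repeat protein of the synapse, which in mice is made at least in part by photoreceptors and acts across the cleft to place nyctalopin and TRPM1 (ENSMUSG00000093865.7, chromosome 3, 129787881 to 129804030, minus strand). It stood at 59.7, 52.4, 62.6, 48.8 and 65.9 CPM in W1 to W5. In K1 to K5 it stood at 65.3, 49.0, 50.1, 45.7 and 49.9 CPM. W5, K1 and W3, which were among the 4 lowest libraries for Grm6, were the 3 highest for Lrit3. The means were 57.9 ± 7.13 and 52.0 ± 7.62 CPM, and the log2 fold change of -0.15 ± 0.10 was the most negative of the 10 (edgeR adjusted p = 0.554). Leaving out K1 moved the log2 fold change to -0.25, with an edgeR adjusted p of 0.178.

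Trpm1 encodes the cation channel that the cascade closes (ENSMUSG00000030523.18, chromosome 7, 64153835 to 64269775, plus strand). Its levels were 328, 278, 234, 313 and 237 CPM in W1 to W5 and 252, 303, 333, 267 and 264 CPM in K1 to K5. W1, W4, K2 and K3 were high and W3, W5 and K1 low. The means were 278 ± 42.7 and 284 ± 33.7 CPM, with a log2 fold change of 0.03 ± 0.11 (edgeR adjusted p = 0.943).

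Gpr179, an orphan receptor that anchors the RGS complex at the dendritic tip (ENSMUSG00000070337.4, chromosome 11, 97332109 to 97352077, minus strand), stood at 254, 188, 186, 246 and 185 CPM in W1 to W5. In the libraries labelled knockout it stood at 184, 231, 257, 225 and 256 CPM. W2, W3, W5 and K1 formed a low set between 184 and 188 CPM, and the other 6 libraries lay at 225 CPM or above. The means of 212 ± 34.8 and 230 ± 29.6 CPM gave a log2 fold change of 0.12 ± 0.11 (edgeR adjusted p = 0.704).

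Rgs7 and Rgs11 encode the GTPase-activating proteins that switch off Go in these cells, and in mice each can cover in part for the other. Rgs7 (ENSMUSG00000026527.13, chromosome 1, 175059087 to 175492500, minus strand) was the steadiest of the 10, at 49.2, 38.4, 43.7, 46.5 and 44.2 CPM in W1 to W5 and 42.9, 44.0, 49.8, 41.0 and 40.9 CPM in K1 to K5. The means of 44.4 ± 4.01 and 43.7 ± 3.63 CPM gave a log2 fold change of -0.02 ± 0.08 (edgeR adjusted p = 0.942). Rgs7 is also expressed by other retinal neurons, so its level in a whole retina is not that of ON bipolar cells alone.

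Rgs11 (ENSMUSG00000024186.15, chromosome 17, 26202951 to 26211324, plus strand) varied most. It stood at 83.0, 41.1, 73.3, 97.0 and 65.8 CPM in W1 to W5 and at 52.5, 63.1, 69.4, 69.2 and 85.2 CPM in K1 to K5. W4 was 2.36 times W2, the largest ratio between any 2 libraries for any of the 10 genes. The group means were 72.0 ± 20.9 and 67.9 ± 11.9 CPM, with a log2 fold change of -0.09 ± 0.18 (edgeR adjusted p = 0.883). Leaving out W2 moved the log2 fold change to -0.23 and leaving out W4 moved it to 0.04, each without a call. For W1 to W5, the CPM ratio of Rgs7 to Rgs11 within a library was 0.592, 0.933, 0.596, 0.480 and 0.672. For K1 to K5 it was 0.818, 0.697, 0.717, 0.592 and 0.480. The balance of the pair spread 1.95-fold over the libraries, and the groups overlapped.

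Gng13 encodes a G protein gamma subunit that is enriched in ON bipolar cells (ENSMUSG00000025739.13, chromosome 17, 25717171 to 25719406, plus strand). The gene ends 484 kb before Rgs11 starts on the same chromosome. Its levels were 41.7, 58.9, 49.1, 50.5 and 47.5 CPM in W1 to W5 and 47.8, 58.4, 50.5, 45.7 and 48.0 CPM in K1 to K5. W2 and K2 were the 2 highest libraries and W1 the lowest, where Rgs11 had W2 lowest and W1 among the 4 highest. The means were 49.6 ± 6.22 and 50.1 ± 4.95 CPM, and the log2 fold change was 0.02 ± 0.09 (edgeR adjusted p = 0.966). Of its 773 exon bases, 399 are shared with Chtf18 on the opposite strand, which stood at 8.53 to 22.05 CPM, and reads of the pair cannot be told apart if strand was not used in counting.

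Pcp2 encodes a small protein of rod and ON cone bipolar cells and cerebellar Purkinje cells that binds the alpha subunit of Go (ENSMUSG00000004630.18, chromosome 8, 3623371 to 3625545, minus strand). It stood at 63.1, 100.3, 74.9, 91.5 and 66.1 CPM in W1 to W5. In K1 to K5 it stood at 71.2, 92.5, 74.5, 73.7 and 73.1 CPM. K2 lay apart from the other libraries labelled knockout, and W2 was the highest of all, the same pair of libraries that was highest for Gng13. The means of 79.2 ± 16.2 and 77.0 ± 8.76 CPM gave a log2 fold change of -0.04 ± 0.12 (edgeR adjusted p = 0.928). Pet100, on the opposite strand, shares 941 exon bases with Pcp2 and stood at 9.09 to 11.55 CPM.

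Prkca encodes protein kinase C alpha, which marks rod bipolar cells and tunes the time course of their response (ENSMUSG00000050965.14, chromosome 11, 107933387 to 108343928, minus strand). It had the most reads of the 10, at 397, 424, 331, 350 and 320 CPM in W1 to W5 and 407, 469, 447, 340 and 344 CPM in K1 to K5. W1, W2, K1, K2 and K3 lay at 397 CPM or above and the other 5 libraries at 350 CPM or below, which cut across the groups. The means were 365 ± 44.6 and 401 ± 58.8 CPM, with the most positive log2 fold change of the 10, 0.14 ± 0.11 (edgeR adjusted p = 0.619). The ratio of Pcp2 to Prkca was 0.218 ± 0.0385 in wild type and 0.194 ± 0.0223 in libraries labelled knockout, with overlapping groups.

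**Figure D2:**
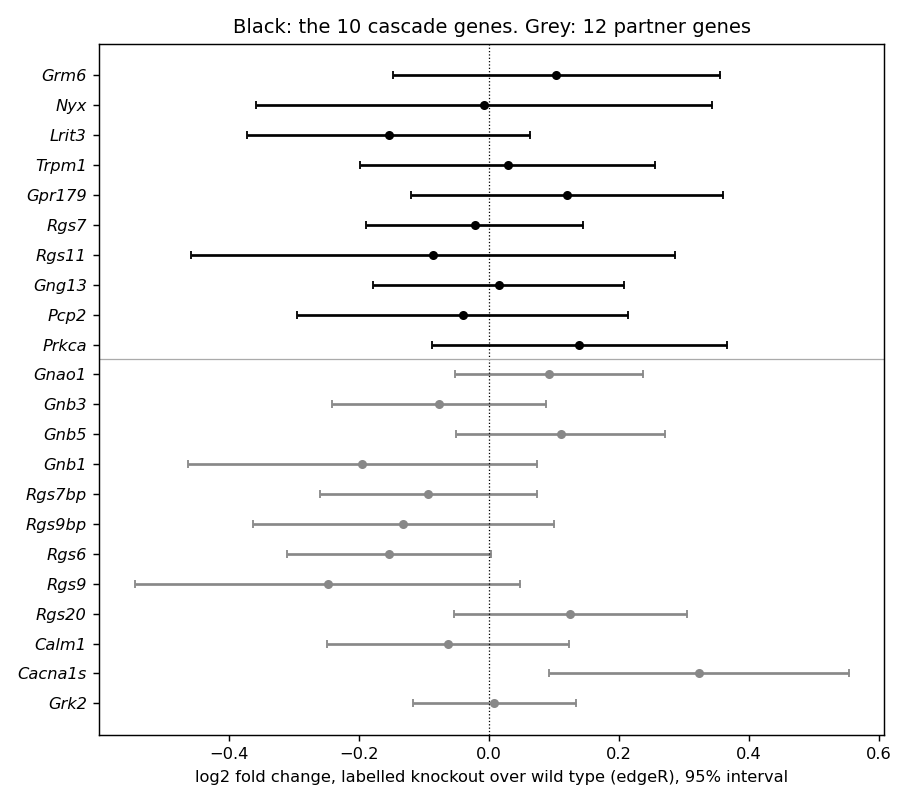
Log2 fold change of labelled knockout over wild type (horizontal axis, edgeR) with its 95% interval for the 10 cascade genes in black and 12 partner genes in grey. Every black interval spans 0, and the grey interval of Cacna1s lies to the right of 0 with an edgeR adjusted p of 0.172.

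Levels of different genes were set side by side as CPM per kilobase of annotated exon, since longer transcripts give more reads. On this scale Gng13 was highest, with a mean over the 10 libraries of 64.5, followed by Pcp2 at 42.7, Prkca at 42.6 and Grm6 at 31.0. Pcp2 and Prkca did not differ beyond their spread over libraries. Gpr179 at 23.2, Lrit3 at 20.1, Trpm1 at 19.1 and Rgs11 at 16.6 came next with overlapping libraries, then Rgs7 at 7.32 and Nyx at 4.03. Per kilobase, the receptor gene Grm6 thus stood several times above Nyx, whose protein it works with. Dividing by the longest coding transcript, an alternative added after the data were seen, gave 49.2 for Trpm1, 34.9 for Rgs11 and 18.1 for Rgs7, and placed Trpm1 next after Gng13 and Pcp2. The exon sum of Trpm1, 14746 bases, is much longer than its longest coding transcript of 5711 bases. Gng13 and Pcp2 ranked highest and Rgs7 and Nyx lowest on both scales. Gng13 shares 399 of its 773 exon bases with a gene on the opposite strand, and Pcp2 941 of its 1828. What this overlap did to their levels per kilobase was not tested.

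**Figure D3:**
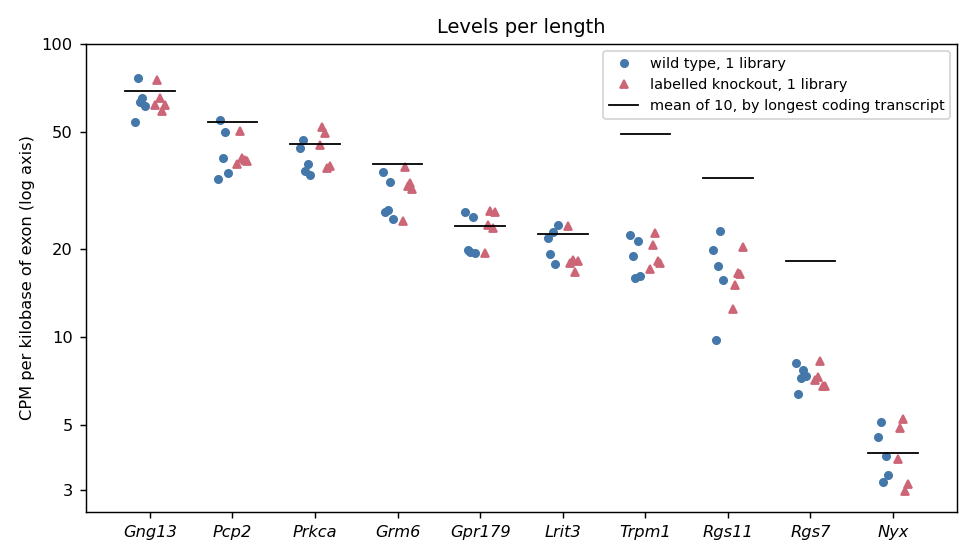
CPM per kilobase of exon (vertical log axis) for each cascade gene, with circles for wild-type and triangles for labelled knockout libraries, and a line for the mean of 10 when the longest coding transcript is used as length. Gng13 is highest and Nyx lowest, and the line lies far above the points for Trpm1, Rgs11 and Rgs7.

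Within a library the levels of Grm6, Gpr179 and Trpm1 kept closer proportions than those of the other genes set against Grm6. The CPM ratio of Gpr179 to Grm6 was 1.28, 1.30, 1.27, 1.34 and 1.35 in W1 to W5, or 1.31 ± 0.0375 (SD, n = 5). In K1 to K5 it was 1.37, 1.12, 1.45, 1.24 and 1.48, or 1.33 ± 0.150, a wider range that took in all the wild-type values. The ratio of Trpm1 to Grm6 was 1.72 ± 0.120 in wild type and 1.65 ± 0.213 in libraries labelled knockout. The ratios of Nyx and Lrit3 to Grm6 were looser, spreading 2.16-fold and 2.04-fold over the 10 libraries against 1.32-fold for Gpr179 and 1.30-fold for Trpm1. The ratio of Gng13 to Grm6 ran from 0.210 in W1 to 0.406 in W2. In all 7 ratios examined the groups overlapped.

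The 10 genes varied between libraries of 1 group by more than the median gene. The coefficient of variation in wild type ran from 9.03% for Rgs7 to 28.9% for Rgs11, beside a median of 8.58% over the 8306 tested genes at or above a mean of 20 CPM. In libraries labelled knockout it ran from 8.30% for Rgs7 to 25.5% for Nyx, beside a median of 8.25%. All 10 genes lay above that median in both groups. Counting error alone, at the mean count of each gene, gives 0.863% (Prkca) to 3.70% (Nyx).

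The cascade genes did not all vary together. Over the 10 libraries, Pearson's r of log2 CPM was 0.86 between Grm6 and Gpr179 (Spearman's rho 0.66), 0.78 between Trpm1 and Gpr179 (0.76) and 0.77 between Grm6 and Trpm1 (0.68). Trpm1 went about as closely with Nyx (0.72, rho 0.70) and Prkca (0.63, 0.67), and Nyx and Prkca with each other (0.89, 0.82), while r between Grm6 and Nyx was 0.28 (0.21). Gng13 went with Pcp2 (0.89, 0.92) and Gpr179 with Rgs11 (0.67, 0.61). Lrit3 ran against Grm6 (-0.68, -0.70) and Gpr179 (-0.64, -0.56). Without the 2 libraries farthest from the median of the gene that comes first in the pair, r stayed at 0.53 or above in the 8 larger positive pairs and became -0.35 and -0.37 in the negative ones. Apart from that of Grm6 and Nyx, these are the 10 largest of 45 pairs by the size of r, given as a description with no test, and the genes share the same libraries and totals.

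Grm6, Gpr179 and Trpm1, and less closely Rgs11 and Rgs7, tended to be lower in libraries with higher rod markers. Grm6 and Gpr179 were not low in K4, however. Summed rod markers stood at 63210, 80051, 74843, 66784 and 78641 CPM in W1 to W5 and at 81100, 57907, 63422, 74236 and 64205 CPM in K1 to K5. Across the 10 libraries r with this sum was -0.89 for Grm6 (rho -0.89), -0.85 for Gpr179 (-0.81) and -0.72 for Trpm1 (-0.66). Without K1 and K2 r became -0.82, -0.94 and -0.71. For Rgs11 r was -0.56 (rho -0.48) and for Rgs7 -0.53 (-0.52), and without K1 and K2 these became -0.70 and -0.66. Over the 10 libraries r was negative for 9 of the 10 genes and 0.51 for Lrit3 (rho 0.50). Without K1 and K2 it was 0.31 for Lrit3, and Gng13 (0.46) and Pcp2 (0.31) were positive too. CPM values are shares of 1 total, which ties them to each other, and these values are a description with no test. Muller glia markers, highest in W2, had r of 0.81 with Gng13 (rho 0.61) and -0.80 with Rgs11 (-0.66), and 0.41 and -0.54 without W2 and K2. Pigment epithelium markers had r of 0.77 with Prkca (rho 0.84), 0.64 with Nyx (0.73) and 0.64 with Trpm1 (0.67), and 0.72, 0.74 and 0.24 without W3 and W5. The summed markers of ON and rod bipolar cells had r of 0.79 with Prkca (rho 0.79) and 0.68 with Nyx (0.70), and 0.69 and 0.61 without K2 and K5. With this bipolar sum, r lay between 0.46 and 0.56 for Grm6, Trpm1, Gng13 and Pcp2. It was only 0.19 for Gpr179 and 0.10 for Rgs7. For 2 of the 10 genes it was negative, at -0.44 for Lrit3 and -0.36 for Rgs11 (-0.67 and -0.30 without K2 and K5). The part of rod, glial or pigment epithelial RNA in the differences between libraries was not tested. With the rod marker sum without Sag added to the fit as a covariate after the data were seen, 0 of the 10 genes were called. Sag, the rod arrestin, was called lower in libraries labelled knockout and is part of the sum of 12 rod markers used above.

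**Figure D4:**
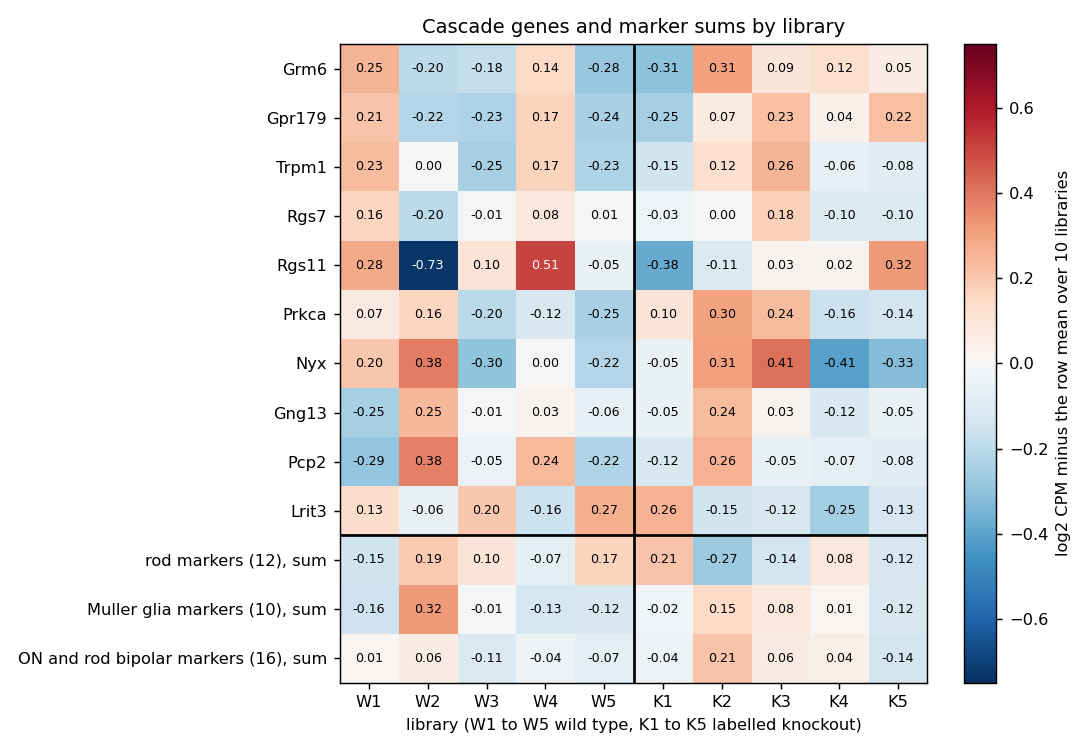
Log2 CPM minus the row mean over the 10 libraries (colour, with the value in each cell) for the 10 cascade genes and, under the line, for sums of rod, Muller glia and bipolar markers. Grm6, Gpr179 and Trpm1 are low or near 0 in W2, W3, W5 and K1, where the rod sum is above its mean. In K4 the rod sum is above its mean too, and so are Grm6 (0.12) and Gpr179 (0.04). Lrit3 is above its mean in W3, W5 and K1, but also in W1 (0.13), where the rod sum is below its mean. In W2 and K4, where the rod sum is above its mean, Lrit3 is at -0.06 and -0.25.

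Genes outside the cascade that most resembled the mean of the 10 centred log2 levels were Slco5a1 (r = 0.96, rho 0.89), Kalrn (0.92, 0.84), Tenm4 (0.91, 0.81), Plekhh3 (0.90, 0.88), Slc30a10 (0.89, 0.94) and Kcnj6 (0.88, 0.84), chosen as the 6 highest among 11897 genes with a mean of at least 5 CPM. Without K2 and K3, r for Slco5a1 was 0.96 and for Kcnj6 0.78. Slco5a1, an organic anion transporter family member, stood at 19.9 ± 2.81 and 21.5 ± 4.49 CPM in the 2 groups. None of the 6 was called between the groups, with edgeR adjusted p from 0.781 to 0.988.

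Partners of the cascade proteins did not pass the test either. Of 12 tested genes for G protein subunits, RGS proteins, their anchors and regulators, 0 passed, 5 were positive and 7 negative, with a median log2 fold change of -0.07. Over all tested genes 2.03% were called, so 0 calls in a list this short, here and in those below, say little. Gnao1, the alpha subunit of Go, stood at 444 ± 15.04 and 474 ± 29.4 CPM, and Gnb5, the obligate partner of RGS7 and RGS11, at 768 ± 56.7 and 829 ± 42.5 CPM. Gnb3, the beta subunit of ON bipolar and cone cells, stood at 357 ± 31.6 and 338 ± 22.5 CPM. The 3 with the smallest p were Cacna1s, a calcium channel subunit (log2 fold change 0.32, edgeR adjusted p = 0.172), Rgs6 (-0.15, 0.372) and the photoreceptor gene Rgs9 (-0.25, 0.465).

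Of 17 tested genes listed for the photoreceptor side of the synapse, 0 passed, with 5 positive and 12 negative and a median of -0.03. In bulk retina the levels of these genes need not come from photoreceptors alone. Elfn1, which binds mGluR6 across the cleft of rod synapses, stood at 120 ± 12.4 and 116 ± 18.6 CPM, and Egflam, which encodes pikachurin, at 272 ± 32.4 and 255 ± 57.4 CPM. The smallest p belonged to Elfn2 (log2 fold change -0.17, edgeR adjusted p = 0.509), the glutamate transporter Slc1a7 (0.10, 0.566) and Cacna1f, the channel subunit that drives glutamate release (0.18, 0.659).

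Single genes of the other bipolar lists came closer to the threshold than any of the 10 cascade genes. Of 16 tested markers of rod and ON bipolar cells, 0 passed and 13 were positive (median 0.07). At an unadjusted p under 0.05 the count was 3 of the 16, where 13.8% of tested genes passed. Cabp5, a calcium-binding protein of rod bipolar and some cone bipolar cells, stood at 176, 145, 157, 120 and 139 CPM in W1 to W5 and at 116, 133, 104, 100.5 and 95.01 CPM in K1 to K5. The 4 highest libraries were wild type and the 4 lowest labelled knockout, with K2 above W4 between them. The log2 fold change of -0.43 ± 0.11 missed the threshold (edgeR adjusted p = 0.0506), and 7 of 19 alternatives called it, DESeq2 among them (adjusted p from 0.00674 to 0.153 over all). Ablim1, an actin-binding protein, had groups that did not overlap, at 263 to 308 CPM in wild type and 312 to 342 CPM in libraries labelled knockout (log2 fold change 0.23, edgeR adjusted p = 0.106, called by DESeq2 alone of 19 alternatives). Across tested genes, 3.48% had groups that did not overlap. The transcription factor gene Prdm8 had a log2 fold change of 0.20 (0.344).

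Among 11 tested OFF bipolar markers, 0 passed and the median log2 fold change was 0.02. Neto1, an auxiliary subunit of kainate receptors, stood at 13.9 ± 1.49 and 10.1 ± 1.68 CPM (-0.46, edgeR adjusted p = 0.0722, called under 3 of 19 alternatives). Bhlhe22 and Prkar2b followed, with -0.20 (0.303) and 0.10 (0.515). Of 9 tested receptor and transporter genes for inhibition at bipolar terminals, 0 passed, with Glra1 at 0.26 (edgeR adjusted p = 0.365) and Gabrr1 at 0.19 (0.408) on the log2 fold scale. Of 8 tested relatives of mGluR6 and TRPM1, 0 passed, with Trpm2 at -0.37 (0.212), Trpm7 at 0.10 (0.575) and Trpm6 at 0.48 (0.611). Of 7 tested protein kinase C genes other than Prkca, 0 passed, with Prkcz at 0.10 (0.539), Prkcq at -0.14 (0.696) and Prkce at -0.07 (0.720).

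Among markers of other cells, calls were made in 2 lists, 1 in each, where 2.03% of all tested genes were called. Sag, the rod arrestin, was called lower (log2 fold change -0.67, edgeR adjusted p = 0.00267), alone among 12 rod markers. C1qc, a microglial complement subunit, was called higher (0.77, 0.0342). Nr2e3, another rod marker, stood the other way (0.32, edgeR adjusted p = 0.143). It was called only with the rod marker sum as a covariate (edgeR adjusted p = 0.00820), a sum that includes Nr2e3, and is named after its values were seen. Of the 10 microglial markers 9 were positive, with a median log2 fold change of 0.37, and 4 had an unadjusted p under 0.05, where 13.8% of tested genes did. Of 19 alternatives, 19 called Sag and 11 called C1qc, whose call was lost without W1, W3, W4, W5, K2, K3, K4 or K5 (edgeR adjusted p from 0.0516 to 0.105). C1qb was called under 2 alternatives, Tyrobp under 1 and Itgam under 1; they are named after their values were seen. The summed microglial markers ran from 24.1 to 44.7 CPM in wild type and from 37.5 to 43.3 CPM in libraries labelled knockout, and their part in any value above was not tested. None passed among 10 cone, 12 amacrine, 10 ganglion, 6 horizontal, 10 Muller glia, 10 pigment epithelium and 3 lens markers tested. The 3 smallest p in each of these lists belonged to Pde6c, Pde6h and Opn1mw for cones, to Gad2, Pax6 and Dab1 for amacrine cells, to Sncg, Isl2 and Nefl for ganglion cells, to Lhx1, Prox1 and Sept4 for horizontal cells, to Kcnj10, Apoe and Rlbp1 for Muller glia, to Lrat, Rgr and Rdh5 for pigment epithelium and to Crybb1, Crybb3 and Bfsp1 for lens. Of these, Pde6c (0.73, edgeR adjusted p = 0.150) and Gad2 (-0.23, 0.156) came nearest to the threshold. Pde6c stood at 41.2, 45.7, 35.4, 42.3 and 106 CPM in the wild-type libraries and at 72.4 to 100.2 CPM in those labelled knockout, and it was called under 2 of 19 alternatives. Without W5, which lay above every library labelled knockout, its log2 fold change was 1.12 (edgeR adjusted p = 8.4e-06). Apoe was called without W2 (0.43, edgeR adjusted p = 0.00979), as was the Muller glia marker Clu (0.30, 0.0346), which is named after its values were seen.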

How the data were processed

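Gene-level read counts from 10 mouse retina libraries were compared, 5 labelled wild type and 5 labelled knockout, grouped by the genotype label. The counts are whole numbers the authors deposited, with no normalization. Reads had been handled with STAR 2.5.3a, featureCounts 1.15.2, bcl2fastq, FastQC and DESeq2 1.14, with GRCm38.p5 as the build, according to the submitters' processing notes; strand and multi-mapping settings are not given in the sources used here. The authors' own comparison stands in further columns, per the file headers, and its deposited log2 fold changes and p-values are printed only as such.

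Genes were filtered with filterByExpr (minimum count 10, minimum total 15), scaled by TMM and tested with edgeR 4.0.16 (glmQLFit, glmQLFTest, genotype as the only term), which called most of the changed genes, but not all, when tested on simulated data. Genes were called at a Benjamini-Hochberg adjusted p under 0.05. Each SE was taken from the log2 fold change and its F statistic. Alternatives used DESeq2 1.42.0, limma-voom 3.58.1, other scaling or filters, or 1 library fewer. Of 36115 gene IDs, 35980 matched GENCODE M21, whose exons gave lengths, and all 10 members had the same coordinates there. No replicate pair agreed within sampling noise (chi-square per gene at least 11.0). Members, gene lists and tests were chosen with earlier results of these data known. Named were the 10 genes, the called genes of each list or else the 3 with the smallest p, and the 6 genes most alike; Gnao1, Gnb3, Gnb5, Elfn1 and Egflam are named for their roles, outside this rule. Some results under this rule are not reported here.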

Additional observations from a re-analysis of the deposited data

Results flagged for a closer look

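In groups of 5 libraries, a value was set apart when its gap to the nearest other exceeded 0.71 of the group's range. Chance gives such a gap in about 1 of 20 groups, and 5 of the 66 groups checked showed one. Lrit3 stood at 65.3 CPM in K1, against 50.1 CPM in the next library labelled knockout, and the ratio of Lrit3 to Grm6 was likewise apart in K1, at 0.486 against 0.289. Pcp2 stood at 92.5 CPM in K2, against 74.5 CPM in the next. The ratio of Nyx to Grm6 was 0.184 in W2, against 0.128 in the next wild-type library. The summed Muller glia markers were at 8897 CPM in W2, against 7086 CPM.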

How the results depend on the processing

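Each of the 10 cascade genes was recomputed under 19 alternatives, and none was called under any of them (lowest adjusted p 0.178, for Lrit3). Grm6, Gpr179, Lrit3 and Prkca kept the sign of their log2 fold change throughout, but with 1 library left out it ran from 0.037 to 0.19, 0.075 to 0.19, -0.25 to -0.10 and 0.077 to 0.20. The other 6 changed sign only when 1 library was left out, with ranges from -0.035 to 0.095 for Trpm1, -0.12 to 0.095 for Nyx, -0.046 to 0.084 for Gng13, -0.072 to 0.017 for Rgs7, -0.23 to 0.044 for Rgs11 and -0.12 to 0.058 for Pcp2. The median of the 10 ran from -0.035 to 0.062. Over all genes, 163 were called higher and 222 lower. DESeq2 gave 314 and 388 and no low-count filter 298 and 406. Leaving out 1 library gave 71 to 253 higher (253 without W2, 93 without K3, 71 without K4, 84 without K5) and 140 to 289 lower (140 without K4), and the cause was not tested. No paired analysis was possible because the labels carry no replicate numbers. Group means of the 10 genes moved by less than 1 SD under library totals or DESeq2 size factors. What limits precision was not tested.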
